A study of Homo sapiens with 4 samples.

Results

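The genes described here encode the centromere, the kinetochore and the spindle checkpoint. The 51 members were taken from the 57820 gene IDs of the count table by matching a list of gene symbols, and each was found once. They fall into 23 inner members (the CENP genes and the factors that load CENP-A), 16 outer members (the NDC80, MIS12, SKA and RZZ complexes, KNL1 and ZWINT) and 12 checkpoint and passenger members. RNA was sequenced from confluent IMR-90 cells, a fibroblast line from human fetal lung, in 2 libraries from RB1 KO cells and 2 libraries from wild-type cells. The RB1 KO cells were a pool that had survived puromycin, not a clone, made with a lentiviral CRISPR-Cas9 construct whose guide is directed at the RB1 translational start. No transduced and selected control is described for the wild-type cells, so the absence of RB1 and the treatment with virus, Cas9 and puromycin cannot be told apart. The sources do not say whether the 2 libraries of a genotype came from separate cultures, so the spread behind each p-value is that of libraries and may be technical only.

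The centromere is the chromosomal site, marked by nucleosomes that hold the histone H3 variant CENP-A, on which the kinetochore is built. A set of CENP proteins called the constitutive centromere-associated network (CCAN) sits on this chromatin through the cell cycle, and in mitosis it carries the outer complexes that grip spindle microtubules. BUB and MAD proteins gather on unattached kinetochores and delay anaphase, and the passenger complex corrects wrong attachments. RNA of many of these genes is made mainly in G2 and mitosis, when RB family proteins no longer hold cell cycle promoters silent.

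Gene counts summed to 33480111 and 34247292 in the RB1 KO libraries, against 32827737 and 30873239 in the wild-type libraries. RB1 RNA was at 85.3 and 79.0 CPM (counts of a gene scaled to library size) in RB1 KO cells, against 76.5 and 75.2 CPM in wild-type cells. Small edits around the translational start can leave RNA levels as they were, so the RB1 counts give no check of the genotype labels. The paper reports that the disruption was checked at the protein level by Western blot for RB1. All 8 fibroblast markers passed the filter on low counts and summed to 45522 and 40800 CPM in RB1 KO cells, against 33391 and 35046 CPM in wild-type cells. Of these markers 1, the collagen-binding proteoglycan LUM, was called higher by edgeR, against 1.99% of all genes. At an unadjusted p under 0.05 edgeR had 3 higher, against 8.16% of all genes, while DESeq2 called 4 higher, against 2.97%. The 8 epithelial markers summed to 1.10 and 1.20 CPM in RB1 KO cells, against 1.77 and 1.60 CPM in wild-type cells, with CDH1 and KRT5 at 0 counts in all 4 libraries. The endothelial marker CDH5 and the leukocyte marker CD3E were also at 0 counts in all 4 libraries. Counts of the leukocyte marker CD68 were 0 and 1 in RB1 KO cells, against 1 and 3 in wild-type cells. Those of the leukocyte marker PTPRC were 1 and 0, against 0 and 1, and those of the endothelial marker CLDN5 were 1 and 1, against 0 and 0. The endothelial marker VWF had 62 and 53 counts in RB1 KO cells, against 27 and 34 in wild-type cells (edgeR adjusted p = 0.191), and the leukocyte marker CD14 had 11 and 14 counts in RB1 KO cells, against 3 and 4 in wild-type cells (edgeR adjusted p = 0.177). Neither passed the test, and their part in the results was not tested.

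Members took a smaller part of the RNA in RB1 KO cells. Their counts summed to 40514 and 44492 in the RB1 KO libraries, which is 0.121% and 0.130% of the gene counts, against 55287 and 46602 in the wild-type libraries, which is 0.168% and 0.151%. All 51 members were among the 16426 genes that passed the filter. Of the 51, 5 were called lower and 0 higher in RB1 KO cells at an adjusted p under 0.1 (quasi-likelihood test of edgeR, Benjamini-Hochberg over all genes tested), and 46 did not pass. Over all genes tested, 0.907% were called lower and 1.99% higher. DESeq2 called 7 members lower and 0 higher, against 1.10% and 2.97% of all genes. At an unadjusted p under 0.05, edgeR had 24 members lower and 0 higher, against 7.16% and 8.16% of all genes. The log2 fold change was negative in 49 of the 51 members, against 51.7% of all genes, and its median was -0.27, against -0.01 over all genes tested. With library totals as the only scaling edgeR called 11 members lower and 0 higher, against 1.98% and 1.35% of all genes. Both RB1 KO libraries lay below both wild-type libraries in 39 members, against 24.3% of all genes, and above both in 0 members, against 22.5% of all genes. In bulk RNA of this kind, fewer dividing cells and less RNA of these genes per cell cannot be told apart. The paper reports that FACS found comparable cell cycle occupancy in RB1 KO and wild-type cells held confluent before UV exposure. The shares it gives for S phase and for G2/M are slightly lower in RB1 KO cells, without a spread. The paper does not say that the sequenced cultures were measured.

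**Figure D1:**
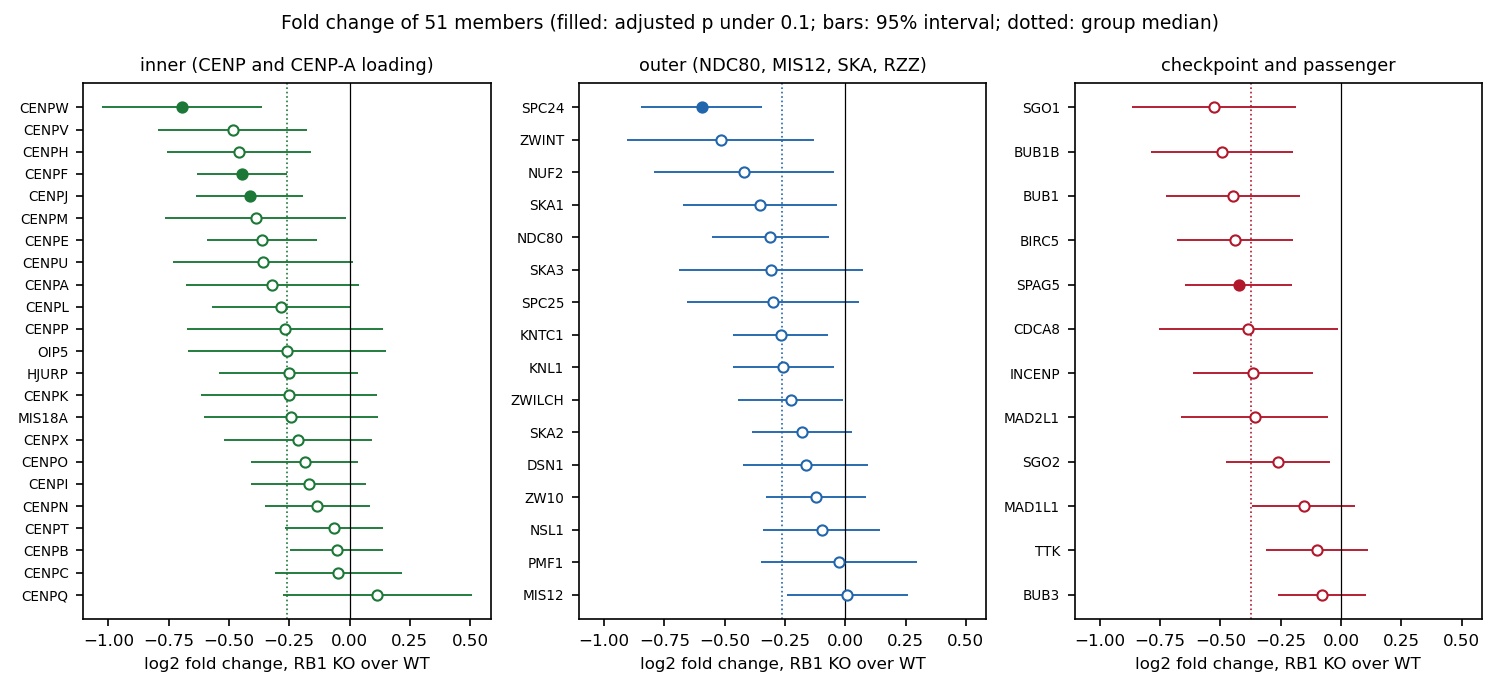
Log2 fold change of RB1 KO over wild-type (x axis) for each of the 51 members (y axis) in the inner, outer and checkpoint and passenger groups, with 95% intervals from edgeR, filled points for the 5 members called lower and a dotted line at each group's median. The medians are -0.26, -0.26 and -0.38, and the only members right of 0 are CENPQ and MIS12.

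Wild-type replicate 1 stood apart for these genes. It had the highest level of the 4 libraries in 44 of 51 members, against 27.5% of all genes, and it lay above wild-type replicate 2 in 45 members, with a median difference of 0.21 on the log2 scale, against 49.8% and a median of -0.0008 over all genes. RB1 KO replicate 2 lay above RB1 KO replicate 1 in 40 members. Without wild-type replicate 1, edgeR called 0 of 51 members lower, against 0.402% of all genes, taking the lone wild-type library to vary like the RB1 KO libraries, although 45 still had a negative log2 fold change and 8 were lower at an unadjusted p under 0.05, against 4.03% of all genes, and the median was -0.15. Without wild-type replicate 2 it called 15, against 1.62% of all genes, with a median of -0.40. Without RB1 KO replicate 2 it called 21, against 3.83%, with a median of -0.36, and without RB1 KO replicate 1 it called 5, against 1.52%, with a median of -0.23.

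**Figure D2:**
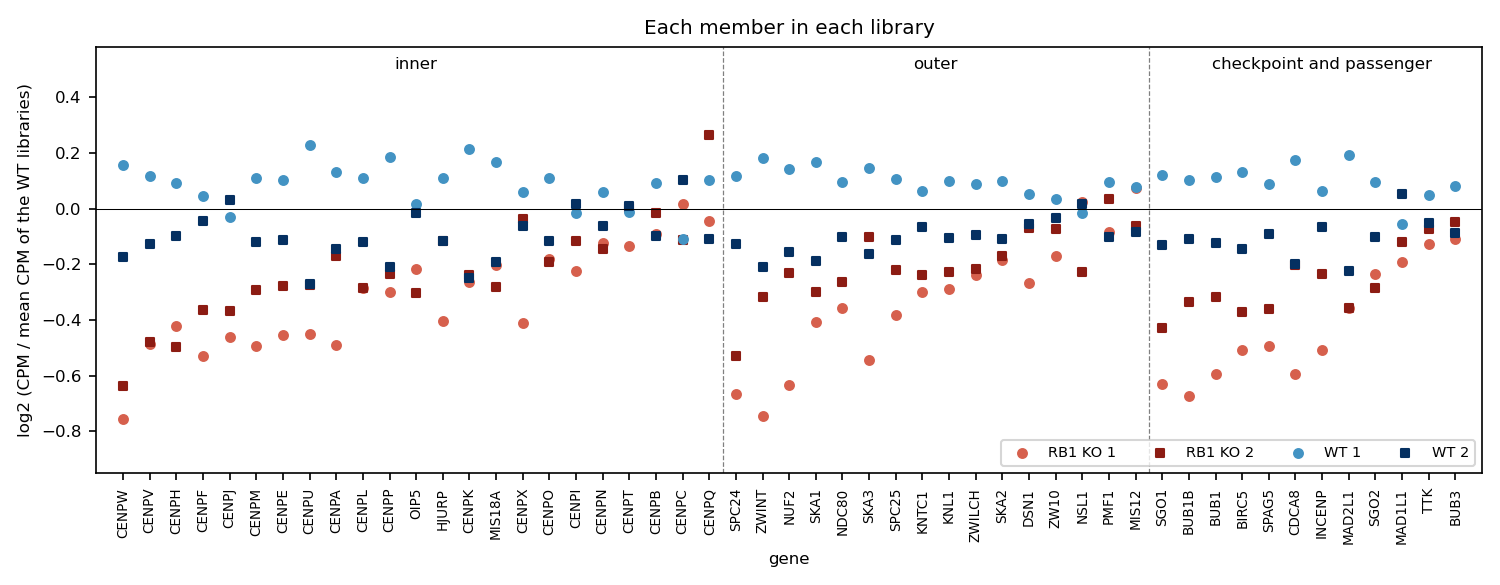
Level of each member (x axis) in each library, as the log2 of its CPM over the mean CPM of the 2 wild-type libraries (y axis), with circles for replicate 1 and squares for replicate 2 of RB1 KO (red) and wild-type (blue). Wild-type replicate 1 is the highest point for 44 of 51 members, and both red points lie below both blue points for 39.

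Of the inner members, 3 of 23 were called lower and 0 higher, against 0.907% and 1.99% of all genes, and the median was -0.26. In 22 the value was below 0, against 51.7% of all genes. At an unadjusted p under 0.05, 7 were lower, against 7.16% of all genes, and DESeq2 called 2 lower, against 1.10%. CENPW, which pairs with CENPT in a histone-fold module of the CCAN, had the lowest log2 fold change of the 51 members. Its levels were 7.91 and 8.59 CPM in RB1 KO cells, against 14.9 and 11.8 CPM in wild-type cells, and the 2 genotypes did not overlap. The log2 fold change was -0.70 (standard error, SE, 0.144, edgeR adjusted p = 0.0725), and it was -0.51 without wild-type replicate 1. CENPW spans chr6:126661261-126670021 on the plus strand of GRCh37 and is a short gene with 854 exonic bases, counted at 260 and 286 reads in RB1 KO cells, against 495 and 377 in wild-type cells.

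The other 2 calls among the inner members bear a CENP name but do not act in the inner kinetochore. CENPF, a very large protein of the outer kinetochore corona whose RNA peaks late in the cell cycle, was at 136 and 153 CPM in RB1 KO cells, against 203 and 191 CPM in wild-type cells, with no overlap. The log2 fold change was -0.45 (SE 0.0805, edgeR adjusted p = 0.0452), and -0.39 without wild-type replicate 1. CENPJ, a centriole protein that sets centriole length, was at 15.2 and 16.2 CPM in RB1 KO cells, against 20.5 and 21.4 CPM in wild-type cells. It was the called member whose wild-type libraries lay closest together, with a log2 fold change of -0.41 (SE 0.0966, edgeR adjusted p = 0.0969), which was -0.43 without wild-type replicate 1, but DESeq2 did not call it (adjusted p = 0.162), and edgeR did not call it without wild-type replicate 2 or without RB1 KO replicate 1 either. CENPE, a kinesin motor of the corona, was at 48.7 and 55.0 CPM in RB1 KO cells, against 71.7 and 61.8 CPM in wild-type cells, and did not pass (-0.36, edgeR adjusted p = 0.137). CENPV, which has been tied to pericentromeric chromatin and microtubule bundling, was at 7.91 and 7.96 CPM in RB1 KO cells, against 12.0 and 10.2 CPM in wild-type cells, and did not pass either (-0.48, edgeR adjusted p = 0.143). In these 4 genes with a CENP name that act elsewhere the median was -0.43 and 2 were called lower, against 0.907% of all genes. In the 19 inner members that act where their group says the median was -0.25 and 1, CENPW, was called lower, against the same share. The difference between these medians was not tested.

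Among the 14 genes of the CCAN, 1 was called lower and 0 higher, against 0.907% and 1.99% of all genes, with a median of -0.23. At an unadjusted p under 0.05, 3 were lower, against 7.16% of all genes, and DESeq2 also called 1, against 1.10%. CENPH (-0.46), CENPM (-0.39), CENPU (-0.36), CENPL (-0.28), CENPP (-0.27), CENPK (-0.25), CENPX (-0.21), CENPO (-0.19), CENPI (-0.17) and CENPN (-0.13) had negative log2 fold changes that did not pass. CENPC, which binds CENP-A nucleosomes and links them to the MIS12 complex, was at 16.8 and 15.4 CPM in RB1 KO cells, against 15.4 and 17.8 CPM in wild-type cells, with overlapping genotypes and a log2 fold change of -0.05 (95% interval -0.31 to 0.22). CENPT, the partner of CENPW that binds the NDC80 complex directly, was at 25.8 and 28.4 CPM in RB1 KO cells, against 28.2 and 28.6 CPM in wild-type cells, a log2 fold change of -0.06 (95% interval -0.27 to 0.14). The RNAs of 2 proteins that work as a pair thus gave -0.70 and -0.06. This contrast was picked out after the values had been seen and was not tested. CENPQ, which with CENPU, CENPO and CENPP helps the motor CENPE and the kinase PLK1 to the kinetochore, had the only log2 fold change above 0 among the inner members, with 5.48 and 6.79 CPM in RB1 KO cells, against 6.07 and 5.25 CPM in wild-type cells. This log2 fold change was 0.12 (SE 0.17, 95% interval -0.28 to 0.51, edgeR adjusted p = 0.801), an interval that covers changes in either direction.

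CENP-A itself and its loading factors formed a narrow group. CENPA was at 8.40 and 10.5 CPM in RB1 KO cells, against 12.9 and 10.7 CPM in wild-type cells, with a log2 fold change of -0.32 (edgeR adjusted p = 0.38). HJURP, the chaperone that places CENP-A on chromatin, had -0.25, OIP5 and MIS18A, both of the MIS18 complex that licenses the loading, had -0.26 and -0.24. None of the 4 passed in edgeR or DESeq2, and 0 had an unadjusted p under 0.05. CENPB, which binds the CENP-B box of alpha satellite DNA, had the highest level per length of the 51 members, a mean of 36.8 CPM per exonic kilobase in RB1 KO cells, against 38.2 in wild-type cells. It was at 104 and 109 CPM in RB1 KO cells, against 118 and 103 CPM in wild-type cells, and its log2 fold change was -0.05 (95% interval -0.24 to 0.14).

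**Figure D3:**
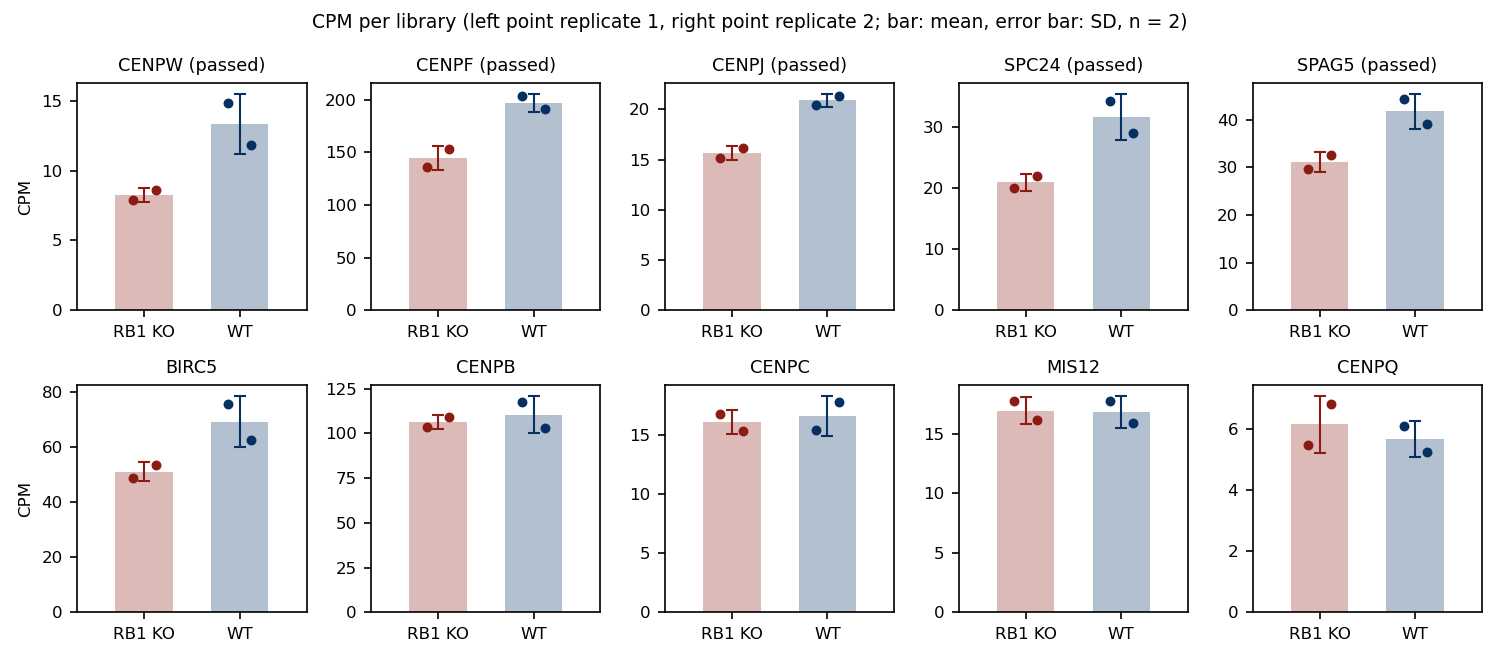
CPM (y axis) of 10 members in RB1 KO (red, left) and wild-type (blue, right) cells, with the 2 libraries as points, the mean as a bar and the SD as an error bar (n = 2 each). In the 5 members called lower (upper row) and in BIRC5 the genotypes do not overlap, and in CENPB, CENPC, MIS12 and CENPQ they do.

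Of the outer members, 1 of 16 was called lower and 0 higher, against 0.907% and 1.99% of all genes, and the median was -0.26. In 15 the log2 fold change was negative, against 51.7% of all genes. At an unadjusted p under 0.05, 8 were lower, against 7.16% of all genes. The call was SPC24, 1 of the 4 subunits of the NDC80 complex, the main microtubule coupler. Its levels were 20.0 and 22.0 CPM in RB1 KO cells, against 34.4 and 29.0 CPM in wild-type cells, and the log2 fold change was -0.60 (SE 0.109, edgeR adjusted p = 0.0481). It was -0.46 without wild-type replicate 1.

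The NDC80 and MIS12 complexes bind each other at the kinetochore and gave different values. All 4 NDC80 subunits lay below wild-type with no overlap of the genotypes, against 24.3% of all genes, at -0.60 for SPC24, -0.42 for NUF2, -0.31 for NDC80 and -0.30 for SPC25. Their summed level was 52.5 and 59.5 CPM in RB1 KO cells, against 82.5 and 69.9 CPM in wild-type cells. All 4 MIS12 subunits lay near 0, at 0.01 for MIS12, -0.02 for PMF1, -0.10 for NSL1 and -0.16 for DSN1, and summed to 65.5 and 62.2 CPM in RB1 KO cells, against 69.1 and 65.5 CPM in wild-type cells. MIS12 itself was at 17.7 and 16.1 CPM in RB1 KO cells, against 17.8 and 15.9 CPM in wild-type cells, with a log2 fold change of 0.01 (SE 0.109, 95% interval -0.24 to 0.26, edgeR adjusted p = 0.985), whose sign turned with library totals as the only scaling (-0.058) and with upper-quartile factors (-0.015). Over all libraries the lowest of the MIS12 subunits thus lay above the highest of the NDC80 subunits. This order did not hold without RB1 KO replicate 1, where NSL1 was at -0.226 and SPC25 at -0.219. The contrast was picked out after the values had been seen and was not tested. The intervals of NUF2, NDC80 and SPC25 overlap those of all 4 MIS12 subunits, and that of SPC24 overlaps those of DSN1 and PMF1. Per exonic kilobase the order within the NDC80 complex was SPC24, NDC80, NUF2 and SPC25 from high to low in each of the 4 libraries, so the subunit with the largest difference was also the one with the highest level.

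ZWINT, which binds KNL1 and brings the RZZ complex to kinetochores, was at 17.3 and 23.3 CPM in RB1 KO cells, against 32.9 and 25.1 CPM in wild-type cells. This gave a log2 fold change of -0.52 (SE 0.168, edgeR adjusted p = 0.199), and both pairs of libraries were far apart. KNTC1, the ROD subunit of RZZ, was at 31.4 and 32.7 CPM in RB1 KO cells, against 40.3 and 36.9 CPM in wild-type cells, with a smaller but tighter difference (-0.27, SE 0.0856, edgeR adjusted p = 0.193). ZWILCH (-0.23) and ZW10 (-0.12), the other RZZ subunits, KNL1 (-0.26), the scaffold for BUB proteins, and SKA1 (-0.35), SKA3 (-0.31) and SKA2 (-0.18), which hold on to shortening microtubule ends, had negative values that did not pass. In the SKA complex the genotypes of SKA3 overlapped, with 12.7 and 17.2 CPM in RB1 KO cells, against 20.5 and 16.5 CPM in wild-type cells.

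**Figure D4:**
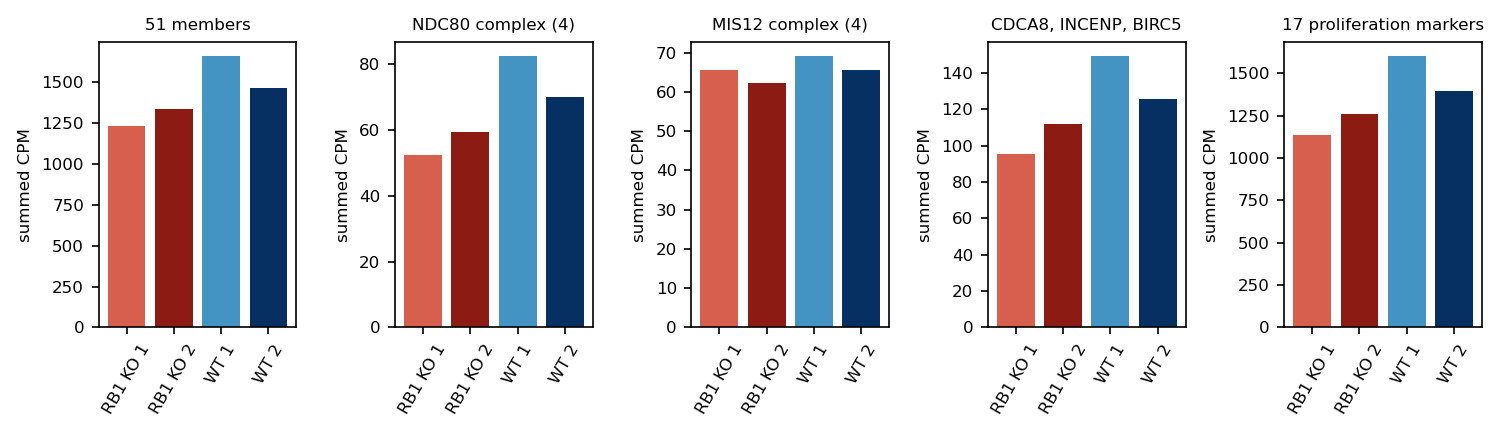
Summed CPM (y axis) in each library for all 51 members, the 4 NDC80 subunits, the 4 MIS12 subunits, the passengers CDCA8, INCENP and BIRC5, and 17 proliferation markers, with the RB1 KO libraries in red and the wild-type libraries in blue. Wild-type replicate 1 is the highest bar in each of the 5 panels, and the MIS12 subunits, which sum to between 62.2 and 69.1 CPM, differ least between the libraries.

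Of the checkpoint and passenger members, 1 of 12 was called lower and 0 higher, against 0.907% and 1.99% of all genes. This group had the lowest median of the 3, at -0.38, and all 12 values were negative, against 51.7% of all genes. Both RB1 KO libraries lay below both wild-type libraries in 11, against 24.3% of all genes. At an unadjusted p under 0.05, 9 were lower, against 7.16% of all genes. DESeq2 called 4 of the 12 lower, BIRC5, BUB1, BUB1B and SPAG5, against 1.10% of all genes. SPAG5, also known as astrin, which stabilises the bipolar spindle and its grip on kinetochores, was the member that edgeR called. It was at 29.7 and 32.6 CPM in RB1 KO cells, against 44.4 and 39.2 CPM in wild-type cells, a log2 fold change of -0.42 (SE 0.0957, edgeR adjusted p = 0.0874), and -0.32 without wild-type replicate 1.

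The 3 passengers had values close to each other, and none passed in edgeR. BIRC5, or survivin, was at 48.8 and 53.6 CPM in RB1 KO cells, against 76.0 and 62.8 CPM in wild-type cells, and lay just outside the cutoff (-0.44, SE 0.104, edgeR adjusted p = 0.102, DESeq2 adjusted p = 0.0361). CDCA8, or borealin, was at 17.3 and 22.7 CPM in RB1 KO cells, against 29.4 and 22.7 CPM in wild-type cells, so that RB1 KO replicate 2 and wild-type replicate 2 were almost level (-0.38, edgeR adjusted p = 0.307). INCENP, the scaffold that activates the Aurora B kinase, was at 29.6 and 35.7 CPM in RB1 KO cells, against 43.9 and 40.1 CPM in wild-type cells (-0.37, edgeR adjusted p = 0.165). AURKB, the kinase of the same complex and not a member, had -0.36 (edgeR adjusted p = 0.225).

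The checkpoint proteins were less alike. BUB1B, the BubR1 arm of the inhibitor that binds the anaphase-promoting complex, was at 21.5 and 27.2 CPM in RB1 KO cells, against 36.7 and 31.8 CPM in wild-type cells (-0.49, SE 0.128, edgeR adjusted p = 0.124). BUB1, the kinase that marks centromeric histone H2A for shugoshin, had -0.45, and SGO1, the shugoshin that shields centromeric cohesin, had -0.53, at 6.42 and 7.39 CPM in RB1 KO cells, against 10.8 and 9.08 CPM in wild-type cells. MAD2L1 (-0.36) and SGO2 (-0.26) also did not pass. BUB3, a beta-propeller protein that joins BUB1 and BUB1B to KNL1, was at 82.3 and 85.9 CPM in RB1 KO cells, against 94.1 and 83.7 CPM in wild-type cells, with overlapping genotypes and a log2 fold change of -0.08 (95% interval -0.26 to 0.10). TTK, the MPS1 kinase at the head of the checkpoint, had -0.10 (95% interval -0.31 to 0.11), and MAD1L1, which carries MAD2L1 to kinetochores, had -0.15.

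General proliferation markers lay lower in RB1 KO cells too, and their part in the result was not tested. Of 17 such genes, 3 were called lower (CCNA2 at -0.34, CCNB2 at -0.44 and MKI67 at -0.49), against 0.907% of all genes, and 0 higher. DESeq2 called 4 of the 17 lower, against 1.10% of all genes. At an unadjusted p under 0.05 edgeR had 14 lower and 0 higher, against 7.16% and 8.16% of all genes. Both RB1 KO libraries lay below both wild-type libraries in 14, against 24.3% of all genes. All 17 had a negative log2 fold change, against 51.7% of all genes, and the median was -0.31. They summed to 1135 and 1260 CPM in RB1 KO cells, against 1601 and 1393 CPM in wild-type cells, and all 17 were higher in wild-type replicate 1 than in wild-type replicate 2. The summed CPM of the 51 members divided by that of these markers was 1.09 and 1.06 in RB1 KO cells, against 1.04 and 1.05 in wild-type cells. Abundant genes weigh most in both sums, and the difference in this ratio was not tested. Of 37 tested genes of the same structures that are not members, 1 was called lower (PTTG1, or securin, at -0.46, edgeR adjusted p = 0.0811), against 0.907% of all genes, and 0 higher. DESeq2 called 3 of the 37 lower, against 1.10% of all genes, and the median was -0.20. At an unadjusted p under 0.05, 11 of the 37 were lower and 1 was higher, against 7.16% and 8.16% of all genes. The higher gene was the dynein light chain gene DYNLT3 (0.31, edgeR adjusted p = 0.128), named after its values were seen.

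Promoter sequences were read because many genes of mitosis share short elements near their start. The CHR element, TTTGAA or TTCGAA, is bound by the MuvB core of the DREAM and MYB-MuvB complexes, CCAAT boxes are bound by NF-Y, and E2F sites by the E2F factors that RB1 restrains. RefSeq promoter windows (GRCh38.p14, 250 bases before to 50 after each start) were found for 41 members, as 46 windows. BUB3, CENPM, CENPL, KNL1, KNTC1, CENPH, TTK, BIRC5, MIS18A and CENPJ are named only. Counting both strands, a CHR hexamer was in 23 of the 46 windows (50%), against 16.4% of all 35116 windows. In 20 windows (43.5%), against 5.01% of all windows, it began within 50 bases of the start, a distance chosen after the positions had been seen. CCAAT was in 63.0% of the members' windows, against 34.6% of all, and an E2F word (TTTCGCGC, TTTGGCGC, TTTCCCGC or TTTGGCGG) in 15.2%, against 3.35% of all. Of the 97 hits in members, 2 overlapped another motif, the CHR and a CCAAT box of CDCA8. A match describes letters and does not show that a factor binds.

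Members with a CHR hexamer were 8 of 18 inner, 7 of 14 outer and 7 of 9 checkpoint and passenger members with a window. The 22 members that hold one had a median log2 fold change of -0.36, from -0.70 to -0.05. Of these, 3 were called lower (CENPW, CENPF and SPAG5), against 0.907% of all genes. The 19 that hold none had a median of -0.18, from -0.60 to 0.12, and 1 was called lower (SPC24), against the same share. The ranges overlap over most of their length, and the difference was not tested. CCAAT boxes and E2F words split the members little, with medians of -0.26 with and -0.31 without CCAAT, and -0.28 with and -0.27 without an E2F word, which 6 members hold.

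**Figure D5:**
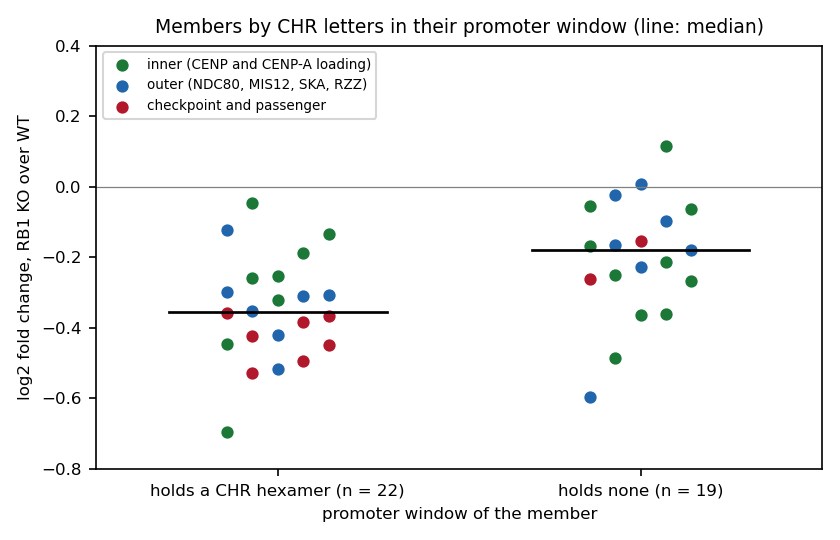
Log2 fold change of RB1 KO over wild-type (y axis) for the 22 members whose promoter window holds a CHR hexamer and the 19 whose window holds none (x axis), coloured by group, with a line at each median. The medians are -0.36 and -0.18, and the 7 checkpoint and passenger members in the left column lie between -0.53 and -0.36.

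The 120 bases before the start are printed for 7 members, picked after their values had been seen, with CHR, CCAAT and E2F words in capitals on either strand. The first 4 hold a CHR hexamer close to the start, in members with log2 fold changes of -0.38, -0.37, -0.52 and -0.49. They lie at chr1:37692396-37692515 (plus strand), chr11:62123891-62124010 (plus strand), chr10:56361260-56361379 (minus strand) and chr15:40160949-40161068 (plus strand) of GRCh38.p14.
CDCA8: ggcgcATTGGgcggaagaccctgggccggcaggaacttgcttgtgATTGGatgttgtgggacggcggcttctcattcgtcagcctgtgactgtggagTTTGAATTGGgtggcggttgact
INCENP: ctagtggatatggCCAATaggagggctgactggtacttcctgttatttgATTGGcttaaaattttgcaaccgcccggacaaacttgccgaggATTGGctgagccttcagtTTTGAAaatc
ZWINT: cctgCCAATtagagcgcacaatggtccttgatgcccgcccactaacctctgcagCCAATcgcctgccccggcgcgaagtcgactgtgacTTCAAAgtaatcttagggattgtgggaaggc
BUB1B: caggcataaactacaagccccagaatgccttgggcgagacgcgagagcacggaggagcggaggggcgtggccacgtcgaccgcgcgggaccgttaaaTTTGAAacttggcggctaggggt
In CDCA8 and INCENP 3 CCAAT boxes, read on either strand, stand in the same stretch as the CHR hexamer, in ZWINT 2, and in BUB1B 0. In CDCA8 the hexamer begins 23 bases before the start and in INCENP 10 bases before it.

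The next 3 hold no CHR hexamer in these bases. They belong to SPC24, which was called lower at -0.60, and to MIS12 and CENPQ, the 2 members with a positive log2 fold change. They lie at chr19:11155783-11155902 (minus strand), chr17:5486254-5486373 (plus strand) and chr6:49463250-49463369 (plus strand) of GRCh38.p14.
SPC24: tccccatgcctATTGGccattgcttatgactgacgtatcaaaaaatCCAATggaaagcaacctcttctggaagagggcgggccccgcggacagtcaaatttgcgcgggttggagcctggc
MIS12: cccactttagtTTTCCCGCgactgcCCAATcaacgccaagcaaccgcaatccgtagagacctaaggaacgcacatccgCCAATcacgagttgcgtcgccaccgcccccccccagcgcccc
CENPQ: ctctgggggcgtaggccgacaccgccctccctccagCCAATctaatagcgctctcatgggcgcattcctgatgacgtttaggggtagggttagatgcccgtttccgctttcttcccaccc
SPC24 and MIS12 each hold 2 CCAAT boxes, MIS12 also holds an E2F word, TTTCCCGC, and CENPQ holds 1 CCAAT box. SPC24 and MIS12 thus have the same number of CCAAT boxes and no CHR hexamer here, with log2 fold changes of -0.60 and 0.01.

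Of the 51 members, 20 share exonic bases with another gene in the annotation, 17 of them with a gene on the other strand and 5 with one on the same strand. SPAG5 (with SPAG5-AS1), CENPV (with PIGL) and SGO1 (with SGO1-AS1) are among those with a gene on the other strand, and BUB1B, which shares bases with the read-through gene BUB1B-PAK6, among those on the same strand. The library kit keeps the strand, but which strand was counted is not stated, so the values of these members may hold or lack reads of their neighbours.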

How the data were processed

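RNA-seq of 2 RB1 KO and 2 wild-type libraries of confluent IMR-90 cells was used, grouped by the genotype in the labels. After depletion of ribosomal RNA and directional library preparation, the authors mapped read pairs to GRCh37 using STAR (2.7.2b in the submitters' processing notes), dropped multimapping reads and had STAR count reads per GENCODE gene. These raw, unnormalized counts were deposited. Counts in genes were between 30873239 and 34247292 per library. Library sizes and tests left out 92 ERCC, 7 SIRV and 4 summary lines. Reads outside genes were 13.0% and 13.1% in RB1 KO 1 and 2, and 13.4% and 15.6% in wild-type 1 and 2. Unmapped reads were 8.05% to 9.06% and ambiguous reads 2.06% to 2.18%. These percentages are of the gene counts plus the counts in the summary lines.

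Counts were tested with edgeR 4.0.16 in R 4.3.3 (TMM factors, filterByExpr at 10 counts and 15 in total, quasi-likelihood test) over all 16426 genes kept, with Benjamini-Hochberg adjustment and calls at an adjusted p under 0.1, and with DESeq2 1.42.0 and limma 3.58.1 as alternatives. The script was tested on simulated data. CPM values use the TMM factors. Exonic lengths, symbols and overlaps came from a later GENCODE release on GRCh37, which paired 55538 of 57820 IDs with a symbol. The biological coefficient of variation was 0.0867, and the 2 libraries of a genotype differed beyond sampling noise (chi-square over degrees of freedom 17.6 for RB1 KO, 18.8 for wild-type). Tables and plots were made in Python 3.11.15 (pandas 2.3.3, matplotlib 3.10.9).

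The members and the lists were chosen with earlier results of these data known. Values in every library are given for members with an adjusted p under 0.1, for the 2 with the lowest unadjusted p among the others in each group and for members with a positive log2 fold change. Those of CENPA, CENPB, CENPC, CENPT, SKA3, CDCA8, INCENP, SGO1 and BUB3 were added after they had been seen. Alternatives were other scalings, filters and tools, a stricter cutoff, the replicate number as a block and leaving out each library. ERCC factors and the crossed block were chosen once the data had been seen.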

Additional observations from a re-analysis of the deposited data

Results flagged for a closer look

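Spike-in RNA, which the sources used here do not describe, was counted in every library. The ERCC share, relative to gene counts, was 0.207% and 0.21% in RB1 KO replicates 1 and 2, against 0.187% and 0.135% in wild-type replicates 1 and 2. They took no part in the comparisons of the report, and factors from their summed counts moved the median log2 fold change of all genes to -0.49 and that of the 51 members to -0.74.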

How the results depend on the processing

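The number of members called lower (5, with 0 higher throughout) was within 1.5 times that value with DESeq2, limma-voom, RLE and upper-quartile factors and at least 10 counts in every library. It was 11 with library totals only, 3 with no filter and 2 at an adjusted p under 0.05. Of all genes, 1.98%, 0.303% and 0.396% were called lower in the same order. Leaving out each library gave 0 to 21 calls over all members, 0 to 9 inner, 0 to 4 outer and 0 to 8 checkpoint and passenger calls, with medians of -0.40 to -0.15, -0.39 to -0.14, -0.34 to -0.14 and -0.53 to -0.24 in the same order. Inner calls were 5 with library totals only (median -0.33), 1 at an adjusted p under 0.05 and 1 over the 19 members located as named. Checkpoint and passenger calls were 4 with DESeq2, 5 with library totals only, 2 with upper-quartile factors, 0 with no filter and 0 at an adjusted p under 0.05.

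With ERCC factors, which moved the median of all genes to -0.49, calls were 1 over all members, 1 inner, 0 outer and 0 checkpoint and passenger, against 1.02% of all genes called lower. The medians were -0.74, -0.71, -0.73 and -0.835. All 51 log2 fold changes were then negative, and 32 members were lower at an unadjusted p under 0.05, against 14.2% of all genes.

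Same-numbered libraries did not deviate together over the genes tested (correlation -0.20). The sources do not say whether the replicate numbers pair the samples, and with 2 libraries per genotype this correlation cannot decide it. With the replicate number as a block, edgeR called 0 members, inner, outer and checkpoint and passenger alike, against 0.451% of all genes called lower, with 18 lower at an unadjusted p under 0.05, against 4.65% of all genes. The crossed pairing, chosen after seeing the data, called 28, of which 10 inner, 9 outer and 9 checkpoint and passenger, against 8.29% of all genes called lower.

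The values of 9 members changed sign, CENPK (-0.25 over all libraries) among them, and none of the values with a changed sign passed. With each library left out in turn (named in parentheses), the ranges were CENPB -0.15 (wild-type replicate 2) to 0.057 (wild-type replicate 1), CENPC -0.14 (wild-type replicate 1) to 0.063 (wild-type replicate 2), CENPK -0.46 (wild-type replicate 2) to 0.010 (wild-type replicate 1), CENPQ -0.044 (RB1 KO replicate 2) to 0.26 (RB1 KO replicate 1), CENPT -0.13 (RB1 KO replicate 2) to 0.0044 (RB1 KO replicate 1), MIS12 -0.070 (wild-type replicate 2) to 0.10 (wild-type replicate 1), NSL1 -0.23 (RB1 KO replicate 1) to 0.027 (RB1 KO replicate 2), PMF1 -0.12 (wild-type replicate 2) to 0.088 (wild-type replicate 1) and BUB3 -0.16 (wild-type replicate 2) to 0.018 (wild-type replicate 1). MIS12 was at -0.058 with library totals only, -0.015 with upper-quartile factors and -0.46 with ERCC factors, and CENPQ at -0.34 with ERCC factors. The cause of these changes was not tested. Standard errors of the 51 members ran between 0.0794 (BUB3) and 0.177 (CENPP and OIP5). Fits without a library take the lone library of its genotype to vary like those of the other genotype.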
